A study of Mus musculus with 4 samples.

Results

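Intergenic peaks near a gene are the places where PRDM6 was recorded outside genes but still close to a transcription start site (TSS). They were taken here as all rows of the authors' peak annotation that were called distal intergenic and lay at most 20 kb from the TSS of the gene assigned to them. Of the 13977 peaks in the list, 1136 met this rule (8.13%, 95% Wilson interval 7.69% to 8.59%), which was 21.8% (20.7% to 23.0%) of the 5200 distal intergenic peaks. They are called near intergenic peaks in what follows. The annotation gave the promoter class precedence up to 3 kb from a TSS, so the members ran from about 3 kb to 20 kb.

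The series holds ChIP-seq libraries of primary mouse outflow tract smooth muscle cells (SMCs), the contractile cells of the great arteries where they leave the heart, in which PRDM6 binding was mapped. The samples were 2 PRDM6 ChIP libraries and 2 Input libraries, and Input is the starting chromatin sequenced as a background control, with no antibody used. Per the labels, the cultures of both groups were infected with a lentivirus that expressed FLAG-tagged PRDM6, so there was no group without the virus. The share of infected cells is not given in the sources used here, and the anti-FLAG antibody saw the overexpressed tagged protein while endogenous PRDM6 went unseen. Per the study's methods, outflow tract SMCs came from the aortic arch and the ductus arteriosus (DA) of late-gestation Prdm6 fl/fl embryos on a C57/Black6 background, whose floxed allele stays active without Cre, and the study gives the embryonic day differently in different places. Its results text ties both immunoprecipitations to a single sample, whereas its methods call them independent, so the spread between them may be technical. Its methods describe nearly all cells as positive for the SMC proteins SM α-actin and calponin-1, and since a peak list carries no expression values, marker levels were not checked here.

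Prdm6 belongs to the PR domain family, whose members carry a domain related to histone methyltransferases followed by zinc fingers, and it is selectively expressed in SMCs. Intergenic sites near genes are one of the places, with introns and sites far from genes, where enhancers are found, short stretches of DNA where transcription factors bind and from which they act on a start site some distance away. AP-1, a dimer of Fos and Jun proteins, binds TGACTCA at many enhancers. The TEAD factors bind AGGAATGC and similar words and bring the Hippo pathway coactivators Yap and Taz to DNA.

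The strongest members are shown first, since their sequences can be read beside the motif counts given later. Each line gives the summit base with 50 bases on either side of it, read on the plus strand of GRCm38 (mm10), and capitals mark a TEAD motif (AGGAATGC, AGGAATGT, GGGAATGC or GGGAATGT) or an AP-1 motif on either strand.
B230208H11Rik: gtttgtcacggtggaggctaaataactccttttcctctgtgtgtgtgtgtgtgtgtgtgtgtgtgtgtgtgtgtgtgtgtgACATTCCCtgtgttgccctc
Snora34: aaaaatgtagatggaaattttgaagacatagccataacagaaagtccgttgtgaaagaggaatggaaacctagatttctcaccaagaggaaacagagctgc
Fgf23: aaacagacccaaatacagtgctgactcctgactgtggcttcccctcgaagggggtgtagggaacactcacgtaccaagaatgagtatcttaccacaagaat
Lima1: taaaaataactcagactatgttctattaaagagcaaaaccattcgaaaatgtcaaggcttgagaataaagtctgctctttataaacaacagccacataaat
Cabcoco1: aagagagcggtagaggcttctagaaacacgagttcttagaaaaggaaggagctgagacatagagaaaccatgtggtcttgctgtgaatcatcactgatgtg
Egln1: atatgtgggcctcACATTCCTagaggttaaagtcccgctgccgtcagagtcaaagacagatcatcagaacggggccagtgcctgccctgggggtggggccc
Slc1a4: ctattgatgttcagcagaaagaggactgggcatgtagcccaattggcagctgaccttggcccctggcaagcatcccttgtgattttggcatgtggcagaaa
Psmc6: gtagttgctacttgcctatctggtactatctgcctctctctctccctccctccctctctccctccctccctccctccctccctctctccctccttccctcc
1700030L20Rik: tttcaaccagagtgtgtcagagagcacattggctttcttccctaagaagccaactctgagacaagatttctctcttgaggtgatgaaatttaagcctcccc
Ecrg4: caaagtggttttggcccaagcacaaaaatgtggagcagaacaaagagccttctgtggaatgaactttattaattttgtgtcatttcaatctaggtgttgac

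These 10 peaks had the highest −log10 p-values of the class, where the value of a matched peak is the smaller one of both replicates. The list names the replicates by order and not by sample, so they are called first-listed and second-listed here. The strongest, chr10:12931291-12932299, lay 8201 bp upstream of the long noncoding RNA gene B230208H11Rik and had a −log10 p of 22.2 in the first-listed and 20.99 in the second-listed replicate. Its summit sat in an annotated repeat, a run of GT that is visible in the sequence above, with TEAD motifs 34.5 bp and 85.5 bp away on either side. The nearest protein-coding start site, that of Stx11, was 31959 bp away. Psmc6, a subunit of the proteasome, had its peak at chr14:45325066-45325651, 4137 bp upstream, with values of 19.9 and 15.7 and a summit in a CT repeat. The other 8 summits were outside annotated repeats.

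Snora34, a small nucleolar RNA, was assigned the peak at chr15:98512497-98513893, 5960 bp downstream of its TSS, with values of 18.9 and 24.3. Fgf23, the hormone that lowers blood phosphate, had a peak at chr6:127056988-127058244, 14658 bp upstream, whose values were nearly equal in the replicates, at 18.9 and 19.9. Both replicates recorded a height of 27 fragments there. Lima1 encodes an actin-binding protein, and its peak at chr15:99888544-99890150 lay 13088 bp upstream with values of 16.9 and 18.3. At Egln1, the oxygen-sensing hydroxylase that marks HIF for degradation, the peak chr8:124960041-124961277 lay 10717 bp upstream. There the second-listed replicate was far higher, with 25.5 against 15.8 and a height of 32 against 24 fragments, and a TEAD motif lay 33.5 bp from the summit. At Cabcoco1 (chr10:68557822-68559635, 15926 bp upstream) the order was the opposite, with 22.1 in the first-listed and 16.5 in the second-listed replicate.

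The remaining members of this top group were near Slc1a4, a neutral amino acid transporter (chr11:20347611-20348221, 14898 bp upstream, 15.8 and 20.99), the noncoding 1700030L20Rik (chr3:136431735-136432749, 16600 bp downstream, 16.8 and 15.7) and Ecrg4, which encodes a secreted peptide precursor (chr1:43714837-43715783, 14819 bp upstream, 21.002 and 15.5). Of the 10 peaks, 8 lay upstream of the TSS. In the window of 100 bp on each side, 3 of the summits had a TEAD motif and 1 had an AP-1 motif, that of 1700030L20Rik, where it was 70 bp from the summit and outside the stretch printed. The TEAD motif of Cabcoco1, 62.5 bp from the summit, and that of B230208H11Rik at 85.5 bp were outside it too.

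**Figure D1:**
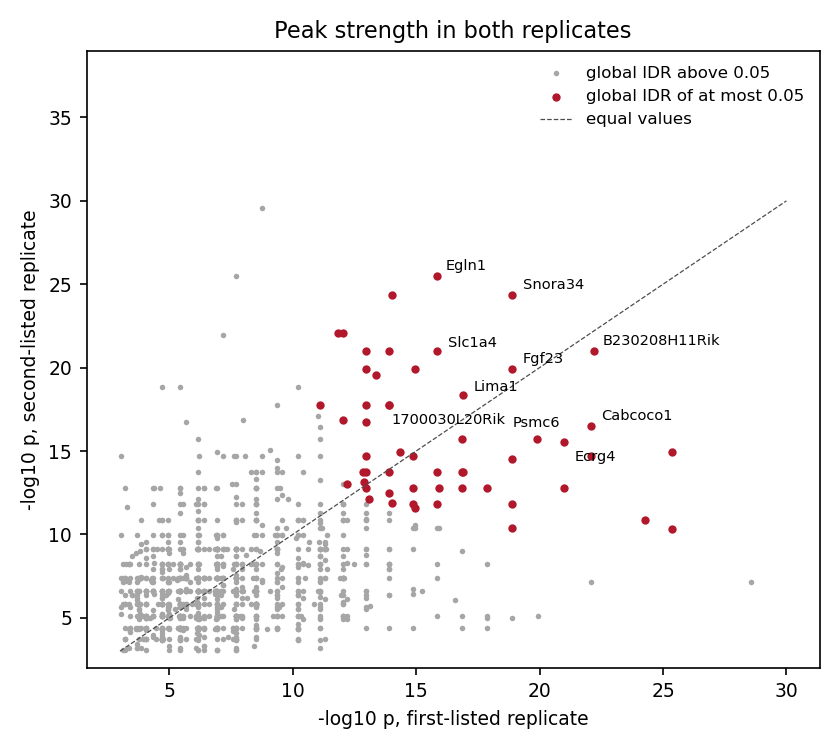
The −log10 p-value of each of the 1136 near intergenic peaks in the first-listed (horizontal) and second-listed replicate (vertical), with the 54 peaks at a global IDR of at most 0.05 in red, the 10 strongest named and a dashed line of equal values. Most points crowd below 10 on both axes, and single peaks are high in one replicate and low in the other.

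The replicates ranked the members differently, as their plot shows. Over the members, Spearman's rho between the replicates' −log10 p-values was 0.338, a description across 1136 peaks that both replicates shared. It was 0.257 at 20 to 100 kb, 0.238 at promoters and 0.263 over all peaks. The first-listed replicate was higher in 573 peaks and the second-listed in 563. The median was 6.92 (quartiles 5.42 and 9.37) in the first-listed replicate and 6.61 (5.10 and 9.10) in the second-listed one. The matched value had a median of 5.69 (4.39 and 7.42) and ran from 3.05 to 20.99. A peak near Ier5, an immediate early gene, had a value of 8.77 in the first-listed and 29.6 in the second-listed replicate, the latter being the highest of the class. The summits of the replicates were a median of 115 bp apart, with an upper quartile of 258 bp.

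The depth behind these values was read from the p-values themselves. For 673 of the 1136 members (59.2%), the value of the first-listed replicate was an upper tail of a Poisson distribution with a mean of 2.61 fragments, and for 744 (65.5%) that of the second-listed replicate fitted a Poisson mean of 2.39 fragments in the same way. The peaks on these series were a median of 15 fragments high (9 to 33) in the first-listed and 14 fragments high (8 to 32) in the second-listed replicate. A typical member thus rested on a small number of fragments in each library. For the other values no height was obtained.

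How well a peak was matched is given by its irreproducible discovery rate (IDR), which compares its rank in one replicate with that in the other and is low for peaks that rank high in both. A global IDR within 0.05 was reached by 54 of the 1136 members (4.75%, 3.66% to 6.15%), beside 3.33% of all peaks. The limit of 0.01 was met by 13 members (1.14%, 0.670% to 1.95%), beside 0.994% of all peaks. The lowest score of the list, shared by peaks with a global IDR of 0.759, was held by 442 members (38.9%, 36.1% to 41.8%). It was 41.4% over all peaks.

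Of the 13 peaks within the IDR limit of 0.01, 9 were among the 10 shown above, and 12 lay upstream of the TSS. The others included those near C1rl, Rab21 and Zfp90. The peak of C1rl, a protease related to complement C1r, was at chr6:124484242-124485520, 7593 bp upstream, with 14.96 and 19.9. Rab21, a small GTPase of endosomes, had a peak at chr10:115328236-115329712, 12645 bp upstream, with 25.4 and 14.9. The zinc finger gene Zfp90 had one at chr8:106399637-106400784, 14543 bp upstream, with 14.01 and 24.3, which overlapped a GENCODE transcript. In each of these 3 peaks the replicates differed by more than 4 on the −log10 scale, and the higher one was the first-listed at Rab21 and the second-listed at C1rl and Zfp90.

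The members were next compared with peaks of the same kind farther out and with promoter peaks. The 2206 intergenic peaks between 20 and 100 kb from a TSS and the 2976 promoter peaks share no peak with the members. Of the members, 4.75% were within the IDR limit of 0.05, against 3.85% (3.13% to 4.74%) of the peaks at 20 to 100 kb and 2.32% (1.84% to 2.92%) of promoter peaks. The difference from promoter peaks was 2.43 percentage points (95% Newcombe interval 1.19 to 3.91, two-sided Fisher's exact test, adjusted p = 0.000231), and that from the peaks at 20 to 100 kb was 0.900 points (−0.506 to 2.48, adjusted p = 0.313, Fisher's exact test). At the limit of 0.01, the difference from promoter peaks was 0.405 points and did not pass (Fisher's exact test, adjusted p = 0.506). Adjusted p-values follow Benjamini and Hochberg over the tests made under one setting, which were 8 in the main comparison, 2 at the limit of 0.01, and 6 for peaks within the limit of 0.05 and for each replicate alone. Of the 6 within the limit of 0.05, 2 were strength tests that could show no difference, since every such peak is above the list median. Since peaks are not replicates, they cover counting over the peaks of this list and not the spread between cultures.

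A −log10 p above the median of the whole list, met by 49.7% of all peaks because of ties, was found in 591 members (52.0%, 49.1% to 54.9%). The share was 52.5% at 20 to 100 kb, 51.5% beyond 100 kb and 44.7% at promoters. Members exceeded promoter peaks by 7.33 points (3.92 to 10.7, Fisher's exact test, adjusted p = 0.000109). Against the peaks at 20 to 100 kb the difference was −0.469 points (−4.04 to 3.10, Fisher's exact test, adjusted p = 0.798). More promoter peaks had a neighbour close by, 51.4% with another peak within 5 kb against 34.6% of members. With 1 peak, the strongest, kept for each run of neighbours, the shares were 56.2% of members and 52.5% of promoter peaks. The difference was 3.68 points and did not pass (Fisher's exact test, adjusted p = 0.164). This setting selects on strength itself and so raises the share more in the class with more neighbours.

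**Figure D2:**
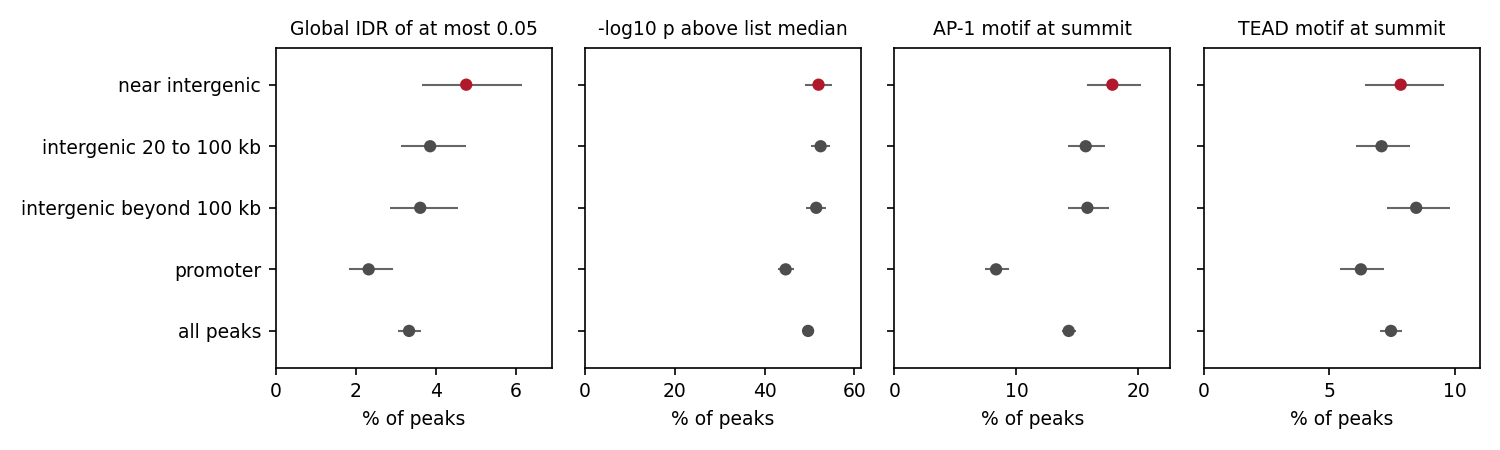
Share of peaks (%) in each class with a global IDR of at most 0.05, a −log10 p above the list median, an AP-1 motif and a TEAD motif near the summit (100 bp or less). Points are shares and bars are 95% Wilson intervals, with the near intergenic peaks in red, and the promoter class is lowest in all 4 panels.

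The AP-1 motif was more frequent at the members than at promoter peaks. TGACTCA lay within 100 bp of the summit in 203 members (17.9%, 15.8% to 20.2%), in 15.7% (14.2% to 17.3%) of the peaks at 20 to 100 kb, in 15.8% of those beyond 100 kb and in 8.33% (7.39% to 9.38%) of promoter peaks, beside 14.3% of all peaks. The members exceeded promoter peaks by 9.54 points (7.17 to 12.1, Fisher's exact test, adjusted p = 4.53e-16). Among peaks within the IDR limit of 0.05 the difference was 3.38 points (−10.7 to 18.1), from 12 of 54 against 13 of 69, and did not pass (Fisher's exact test, adjusted p = 1). Over the whole list, their difference from the peaks at 20 to 100 kb was 2.19 points (−0.456 to 4.94, Fisher's exact test, adjusted p = 0.184). Base composition differed too, since 19.8% of the members and 46.3% of the promoter peaks had at least 50% G and C around the summit, and its part in the motif difference was not tested.

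In windows of the same total length centred 1000 bp to either side of the summits, TGACTCA was found for 48 members (4.23%, 3.2% to 5.56%), so it was 4.23 times as frequent at the summits. The same ratio was 3.80 at 20 to 100 kb, 4.20 beyond 100 kb, 2.58 at promoters and 3.73 over all peaks. In the flanks, the promoter class was close to the members, at 3.23% (2.65% to 3.92%).

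A TEAD motif lay at 89 members (7.83%, 6.41% to 9.54%), beside 7.45% of all peaks. The share was 7.07% at 20 to 100 kb, 8.45% beyond 100 kb and 6.25% at promoters. Neither difference passed: it was 0.763 points (−1.07 to 2.74, Fisher's exact test, adjusted p = 0.504) from the peaks at 20 to 100 kb and 1.58 points (−0.115 to 3.48, Fisher's exact test, adjusted p = 0.140) from promoter peaks. Around the summits of the second-listed replicate alone both passed, at 2.11 and 3.13 points (Fisher's exact test, adjusted p = 0.0379 and 0.000681), and around those of the first-listed alone neither did. The flanks held a TEAD motif for 41 members (3.61%, 2.67% to 4.86%), and the ratio of summits to flanks was 2.17.

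Among the better-matched members the TEAD motif was more frequent than among the others, a difference within the class that was not tested. Of the 54 members within the IDR limit of 0.05, 12 had a TEAD motif (22.2%, 13.2% to 34.9%), against 77 of the other 1082 (7.12%, 5.73% to 8.80%). For AP-1, the shares were 12 of 54 (22.2%, 13.2% to 34.9%) and 191 of 1082 (17.7%, 15.5% to 20.04%). The 12 peaks with a TEAD motif were those of B230208H11Rik, Cabcoco1, Egln1, C1rl, Garre1, Ptpro, Tmem216, Colca2, Zfr, Ankrd1, Mir6344 and A730020M07Rik. Within the same IDR limit, 3 of 85 peaks at 20 to 100 kb had the motif (3.53%), and the difference of 18.7 points (7.66 to 31.6) passed Fisher's exact test (adjusted p = 0.00689). Against promoter peaks within that limit, 8 of 69, it was 10.6 points (−2.59 to 24.5) and did not pass (Fisher's exact test, adjusted p = 0.425). These comparisons rest on small counts. Within the limit, the TEAD share at 20 to 100 kb was below the 7.07% of that whole class. At promoters it was above, at 11.6% against 6.25%. The TEAD share of all peaks within the limit is not given here.

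**Figure D3:**
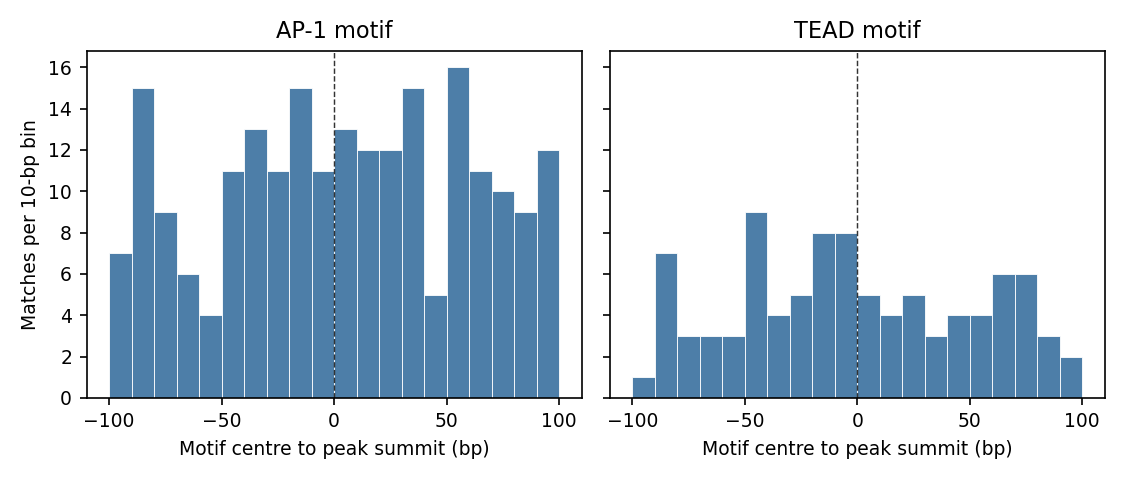
Number of AP-1 (left) and TEAD (right) matches of near intergenic peaks per 10-bp bin of distance from the motif centre to the peak summit, marked by a dashed line at 0. The 217 AP-1 matches are spread over the whole window of 100 bp on each side, with 64 of them within 25 bp of the summit, and of the 93 TEAD matches 30 are within 25 bp.

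The motifs were spread widely around the summits. The 217 matches of TGACTCA were a median of 46 bp from the summit and the 93 TEAD matches a median of 45.5 bp, close to the 46 bp and 44.5 bp over all peaks. An even spread over the window would put the median at about 50 bp. Members with TGACTCA had a median −log10 p of 6.14 and those without it 5.67, and for TEAD the medians were 6.42 and 5.67.

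Both motifs lay at 18 members (1.58%, 1.00% to 2.49%), beside 0.635% (0.378% to 1.06%) of the peaks at 20 to 100 kb, 1.67% of those beyond 100 kb, 0.739% of promoter peaks and 1.03% of all peaks. The 4 of them within the IDR limit of 0.05 are shown here because they let the spacing of the motifs be read directly, and the peak of Ankrd1, which had a TEAD motif and no AP-1 motif, because it was the strongest of the Hippo pathway genes. These 5 were chosen after their values were seen. Each line gives the summit base and 100 bases on either side, on the plus strand of GRCm38, with TEAD and AP-1 motifs in capitals.
C1rl: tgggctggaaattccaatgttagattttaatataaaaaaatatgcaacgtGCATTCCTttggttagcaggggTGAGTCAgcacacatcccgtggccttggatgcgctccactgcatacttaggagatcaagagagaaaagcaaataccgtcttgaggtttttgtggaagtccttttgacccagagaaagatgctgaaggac
Tmem216: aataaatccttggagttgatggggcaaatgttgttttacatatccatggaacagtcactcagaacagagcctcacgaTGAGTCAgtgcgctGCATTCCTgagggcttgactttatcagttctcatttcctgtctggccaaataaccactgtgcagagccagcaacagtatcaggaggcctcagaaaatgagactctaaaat
Colca2: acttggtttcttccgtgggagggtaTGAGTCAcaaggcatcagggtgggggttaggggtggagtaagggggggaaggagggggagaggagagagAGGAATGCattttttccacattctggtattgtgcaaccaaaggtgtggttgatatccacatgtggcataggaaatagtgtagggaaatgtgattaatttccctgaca
Zfr: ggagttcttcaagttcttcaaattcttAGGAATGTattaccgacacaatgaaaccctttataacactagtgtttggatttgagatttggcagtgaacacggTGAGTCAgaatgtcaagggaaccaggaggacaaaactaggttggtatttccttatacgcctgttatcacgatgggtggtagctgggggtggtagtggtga
Ankrd1: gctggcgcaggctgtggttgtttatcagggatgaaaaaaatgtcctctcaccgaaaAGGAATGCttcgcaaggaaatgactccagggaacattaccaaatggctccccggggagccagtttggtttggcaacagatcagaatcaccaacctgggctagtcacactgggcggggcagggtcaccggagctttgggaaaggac

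The motif centres were 14.5 bp apart at Tmem216, a transmembrane protein of the cilium (chr19:10561379-10562312, 5141 bp upstream, −log10 p of 12.95 and 20.99). They were 21.5 bp apart at C1rl, 69.5 bp at Colca2 (chr9:51286188-51286825, 7619 bp upstream, 12.95 and 17.8) and 73.5 bp at Zfr, an RNA-binding zinc finger protein (chr15:12110949-12111903, 5928 bp upstream, 12.9 and 13.1). Cyth4, whose peak had the lowest score of the list, had a spacing of 8.5 bp.

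Other words were counted without a test. TTTCAT or TTTCCT lay at 43.8% (40.9% to 46.7%) of the members and in the flanks of 35.5%, and at 44.9% of the peaks at 20 to 100 kb, 33.8% (32.2% to 35.6%) of promoter peaks and 43.1% of all peaks. The E-box CAGCTG lay at 12.2% of the members' summits and 8.27% of their flanks, beside 11.5% of all summits. The RUNX word TGTGGTT lay at 5.99% and 5.63%, beside 6.71% of all summits. The CArG box, bound by serum response factor at contractile genes, was found at 12 members (1.06%, 0.605% to 1.84%) and in the flanks of 13, beside 1.41% of all summits. The full NFI palindrome, TTGGC and GCCAA around a spacer of 5 bases, was found at none of the 1136 summits, which allows a share of up to 0.337% (Wilson), and the CTCF core at 2, those of Adamts1 and Minpp1. No match says only that these letters are not within 100 bp of the summit. Of the members, 258 (22.7%, 20.4% to 25.2%) had their summit in a repeat, beside 18.7% at 20 to 100 kb, 14.5% at promoters and 17.9% of all peaks.

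The members were not spread evenly around the TSS. Of the 1136, 817 (71.9%, 69.2% to 74.5%) lay upstream and 319 (28.1%, 25.5% to 30.8%) downstream. The sides were not compared by a test, because a peak downstream of a TSS is intergenic only past the end of a gene that is shorter than the distance. All 319 downstream peaks were past the end of the transcript they were assigned to, a median of 6953 bp past it, and those transcripts had a median length of 2893 bp, against 27284 bp for the transcripts with an upstream member.

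**Figure D4:**
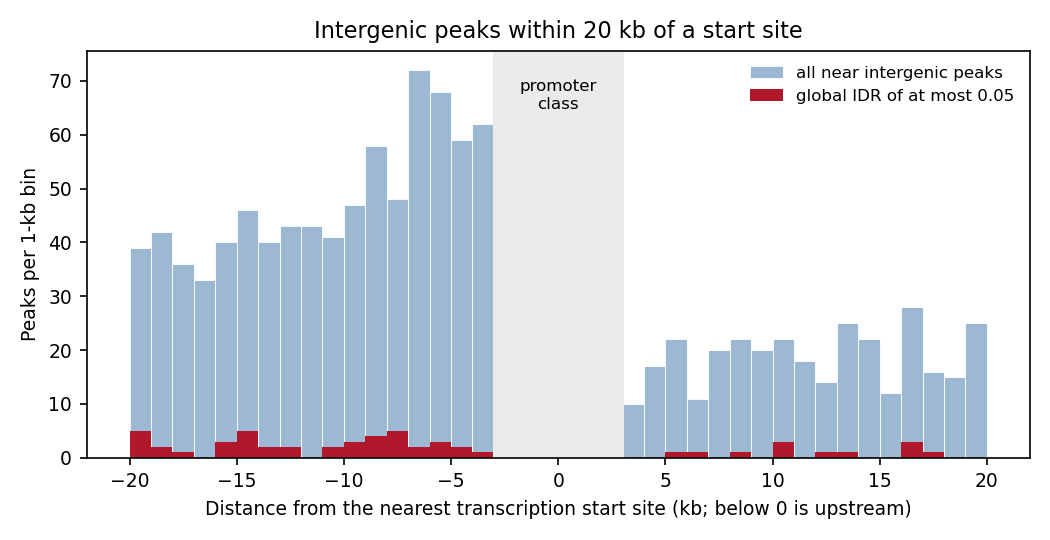
Number of near intergenic peaks per 1-kb bin of distance from the nearest TSS, upstream at negative and downstream at positive values, with the 54 peaks at a global IDR of at most 0.05 in red. The grey band from −3 to 3 kb belongs to the promoter class. Upstream there are 60.5 peaks per kb from 3 to 5 kb and 38 per kb from 15 to 20 kb, while downstream there are 13.5 and 19.2.

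Density fell with distance on the upstream side, as the histogram of distances shows. There were 60.5 upstream peaks per kb between 3 and 5 kb, 58.6 between 5 and 10 kb, 42.6 between 10 and 15 kb and 38 between 15 and 20 kb. Downstream, there were 13.5, 19, 20.2 and 19.2 per kb. The amount of intergenic sequence at each distance was not taken into account. Over these bins, with both sides joined, the median −log10 p was 5.42, 5.84, 5.84 and 5.53. TGACTCA lay at 18.9%, 14.4%, 18.8% and 20.98% of the peaks and a TEAD motif at 7.43%, 9.28%, 8.28% and 5.59%, and for each motif the intervals of the bins overlap. The share within the IDR limit of 0.05 was 2.03% (0.692% to 5.79%) between 3 and 5 kb, from 3 of 148 peaks, and 5.15%, 5.10% and 5.24% in the bins farther out, and these intervals overlap.

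At the limits of the class, the nearest members were those of Bmper, a regulator of BMP signalling, at 3022 bp (−log10 p of 6.92 and 6.61) and App at 3028 bp (6.92 and 7.92). The nearest promoter peaks below, at Kat6b and Amot, both 2999 bp away, had matched values of 5.10 and 4.31. At the outer edge, the members of Hopx at 19993 bp (5.42 and 8.25) and Vps45 at 19996 bp (13.9 and 20.99) were the last inside, and the peaks of Xdh at 20025 bp (11.8 and 11.8) and Tlr2 at 20029 bp (5.69 and 10.9) were the first outside.

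By the GENCODE gene set, 4 of the 1136 members overlapped a transcript and 87 (7.66%, 6.25% to 9.35%) lay within 3 kb of some TSS. The remaining 1046 (92.1%, 90.4% to 93.5%) were intergenic by both measures. Of the 935 members assigned to a protein-coding gene, 886 (94.8%, 93.1% to 96.0%) were assigned to the gene of the nearest protein-coding TSS of GENCODE. Another 161 members (14.2%) were assigned to long noncoding RNA genes and 34 (2.99%) to genes of small RNAs. Within 20 kb of a protein-coding TSS of GENCODE lay 908 of the 1136 members (79.9%, 77.5% to 82.2%). The start site used can lie far from the coding TSS of the same gene, as at Col6a3 and Slco2a1 below. A peak's gene is the gene with the nearest start site, which says nothing of which gene the site acts on.

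The 1136 members were assigned to 903 genes, of which 720 (79.7%) had 1 member, 143 had 2, 32 had 3 and 8 had 4 or more. Of these genes, 752 were protein-coding, which was 3.44% of the 21883 protein-coding genes of RefSeq, while any peak at all was found for 20.1%. Of the 752, 211 (28.1%, 24.97% to 31.4%) also had a promoter peak and 177 (23.5%, 20.6% to 26.7%) an intronic one. Among the other 21131 protein-coding genes, most of which had no peak, the shares were 7.58% and 8.96%. Among genes of every kind with at least 1 peak the order was the opposite: 26.6% of the 903 had a promoter peak and 23.3% an intronic one, against 41.3% and 51.002% of the 4343 without a near intergenic peak, which by their definition must have a peak of another class. No other class of peak was assigned to 411 of the 903 genes (45.5%, 42.3% to 48.8%). No member was assigned to Prdm6 itself.

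**Figure D5:**
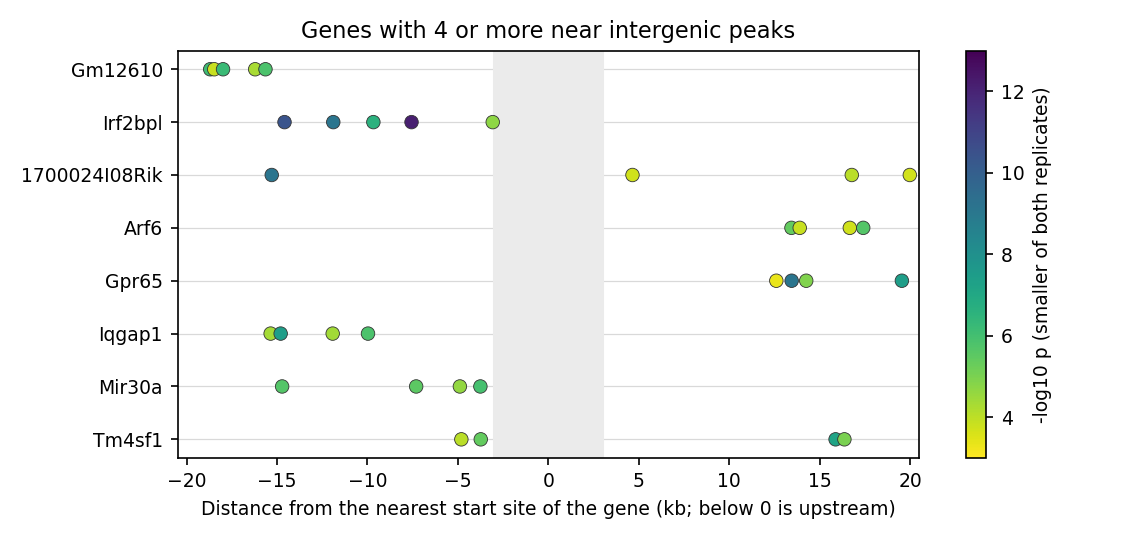
Distance (kb) of the near intergenic peaks of the 8 genes with 4 or more of them from the nearest start site of the gene, with upstream at negative values and the colour giving the −log10 p of the matched peak. Irf2bpl carries the strongest peak of the plot, at 12.1, and the peaks of Arf6 and Gpr65 are all downstream.

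Several genes had a row of members. Irf2bpl, named for its likeness to binding proteins of the interferon regulatory factor IRF2, had 5, all upstream between 3078 and 14586 bp on chromosome 12, and 3 further peaks of other classes. Its members had matched −log10 p-values of 10.4, 9.10, 6.61, 12.1 and 4.71 from the farthest to the nearest, and the 1 at 12.1 was within the IDR limit of 0.05. The values of that peak in the replicates were 13.1 and 12.1. The noncoding Gm12610 on chromosome 4 also had 5 members, with matched values between 3.83 and 6.21. These members spanned 43.3 kb because the distances were taken to different start sites of the gene. It had 23 peaks in all.

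The other genes of this kind had 4 members each. Iqgap1, a scaffold of the actin cytoskeleton, had all of its members upstream within 5.78 kb of sequence, the strongest with 11.3 and 7.42 in the replicates. Arf6, a small GTPase of membrane traffic, had all of them downstream within 4.61 kb, none with a matched value above 5.67. Gpr65, a proton-sensing receptor, had all of them downstream, with a matched value of 9.10 at the strongest and TGACTCA at 2. Mir30a, a microRNA gene, had all of them upstream, with matched values between 4.62 and 5.95, and its nearest protein-coding TSS was at least 114666 bp away from any of them. At Tm4sf1, a membrane protein of endothelial and mesenchymal cells, 2 were upstream and 2 downstream. The noncoding 1700024I08Rik had 1 upstream and 3 downstream, the 3 with the lowest score. Within these 6 genes no member met the IDR limit of 0.05.

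The members near genes of SMC and vessel biology were then read from 10 lists of 408 genes in all, matched by RefSeq symbol or synonym. Of the 408, 50 (12.3%, 9.42% to 15.8%) had a near intergenic peak and 229 (56.1%, 51.3% to 60.9%) had a peak of any class, against 3.44% and 20.1% of all protein-coding genes. Among genes with any peak, the shares with a near intergenic peak were 21.8% (16.97% to 27.6%) for the lists and 17.1% (16.02% to 18.2%) for all protein-coding genes. The median matched value of a list's peaks ran from 3.70 for the outflow tract and neural crest factors, with 3 peaks, to 7.85 for the DA genes, with 4, beside 5.69 for all members. The lists were chosen with earlier results of these data known, so the shares describe the lists and nothing more. Their 61 peaks included 2 within the IDR limit of 0.05 (3.28%, 0.904% to 11.2%), those of Ankrd1 and Id3, a share near the 3.33% of the whole list.

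Hippo pathway genes had a member at 4 of 32. Ankrd1, a target of Yap that encodes a muscle ankyrin repeat protein, had the strongest, at chr19:36128395-36129962, 8296 bp upstream, with 21.002 and 12.8 in the replicates, heights of 29 and 20 fragments and a TEAD motif 40.5 bp from the summit (shown above). A further member 11792 bp upstream of Ankrd1 had 4.95 and 9.10. Sav1, the scaffold of the Hippo kinases, had 15.8 and 10.4 at a peak 10837 bp upstream, and Vgll4, a TEAD cofactor, 12.5 and 8.25 at a peak 7007 bp upstream. Ccn1, another Yap target, had a peak with the lowest score, 3436 bp downstream, with 7.17 and 4.39.

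TGF-beta and BMP genes had a member at 5 of 52. Id3, a target of BMP signalling that blocks basic helix-loop-helix factors, had one at chr4:136122959-136124128, 19369 bp upstream, with 17.9 and 12.8. Skil, which restrains Smad proteins, had 7.71 and 8.72 at 10132 bp upstream, the ligand Tgfb2 had 6.15 and 9.54 at 12937 bp upstream, and Fst, which binds activin, had 5.56 and 9.98 at 6834 bp downstream. Notch pathway genes had a member at 2 of 25. The Notch target Hes1 had 6.89 and 6.61 at 5170 bp upstream, with a TEAD motif, and Numb, an inhibitor of Notch, had 7.71 and 9.10 at 5905 bp upstream, with TGACTCA.

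Genes of the DA had a member at 4 of 28. Ptgs2, which makes the prostaglandin precursor, had a peak at chr1:150115081-150116067, 14749 bp downstream, with 12.03 and 8.72. Slco2a1, the prostaglandin transporter, had 8.52 and 10.9 at 15916 bp upstream, and Ptgs1, the constitutive partner of Ptgs2, 7.17 and 7.42 at 15962 bp upstream. For the Slco2a1 peak, the nearest protein-coding TSS of GENCODE, also of Slco2a1, was 35206 bp away. Myocd, the coactivator of serum response factor, had a peak with the lowest score, chr11:65275113-65275854, 5124 bp upstream, with 4.71 and 5.10 and a height of 11 fragments in each replicate. None of the 4 was within the IDR limit of 0.05, and neither motif was found at any of them.

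Contractile genes and their regulators had a member at 4 of 28. Acta2, smooth muscle actin, had 2: at 9887 bp upstream with 10.2 and 5.84, and at 10509 bp upstream with 5.42 and 4.39. Mrtfb, the myocardin-related factor B, had 8.52 and 5.84 at 15603 bp upstream, with TGACTCA, and Cald1, caldesmon, 5.69 and 5.53 at 18438 bp upstream. Myocd is on this list as well.

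Matrix genes had a member at 9 of 57, with 14 peaks. Sparc, a collagen-binding glycoprotein, had 11.1 and 10.7 at 5059 bp upstream, and Col6a3, a chain of collagen VI, 10.4 and 9.98 at 18575 bp downstream. The Col6a3 distance is from the start of a transcript of 5827 bp. The nearest protein-coding TSS of GENCODE, also of Col6a3, was 89288 bp away. At Col3a1, a chain of fibrillar collagen, there were 3, of which that at 18719 bp downstream had 9.82 and 12.1 and that at 11420 bp upstream 9.37 and 14.4. Fbn1, which forms microfibrils, had 7.71 and 7.42 at 17577 bp upstream. All 14 were outside the IDR limit of 0.05.

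Growth factor and receptor genes had a member at 8 of 48. Spry2, an inhibitor of receptor tyrosine kinase signalling, had 13.9 and 10.9 at 5050 bp downstream, Igf1r 11.1 and 9.10 at 17567 bp upstream, Pdgfc 6.92 and 9.10 at 18335 bp upstream and Spry1 5.56 and 11.8 at 13626 bp downstream. Wnt pathway genes had a member at 7 of 54. The ligands Wnt2 and Wnt16 had 12.95 and 8.74 at 14559 bp upstream and 6.92 and 9.10 at 6791 bp upstream, the receptor Fzd1 had 6.14 and 5.95 at 15997 bp downstream, and Wnt10a had 4.71 and 5.84 at 15023 bp downstream. The Wnt2 peak had a TEAD motif.

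AP-1 and immediate early genes had a member at 5 of 31, and 4 of their 7 peaks held TGACTCA, beside 17.9% of all members. In each of the other lists at most 1 peak held it. That was 1 of 2 peaks for Notch, 1 of 3 for the outflow tract list and 1 of 14 for matrix genes. These counts are small, the lists were chosen with earlier results known, and the difference was not tested. None of the 7 peaks was within an IDR limit. Ier5 had 3 of these peaks, at 5382 bp and 7156 bp downstream and 8611 bp upstream. The replicates were 8.77 and 29.6 at the nearest of them. At Myc the peak lay 4431 bp downstream with 9.57 and 5.84, at Ier3 7818 bp upstream with 5.42 and 9.54, and at Dusp6, a phosphatase of ERK, 11818 bp upstream with 3.75 and 7.33. The outflow tract and neural crest transcription factors had a member at 3 of 66, the lowest share of the lists at 4.55%, although 41 of the 66 had a peak of some class. Meis1, a homeobox factor, had 8.52 and 12.1 at 3421 bp upstream with TGACTCA, while Nr2f2 (3.70 and 6.61) and Sox4 (3.10 and 7.14) had peaks with the lowest score.

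By chromosome, the members were most numerous on chromosome 1 with 120, chromosome 3 with 103 and chromosome 6 with 85. As a share of each chromosome's peaks they ran from 4.40% (3.22% to 5.99%) on chromosome 15, 38 of 863 peaks, to 11.8% (6.73% to 19.9%) on the X chromosome, 11 of 93 peaks. Per megabase there were 0.644 members on chromosome 3 and 0.0643 on the X chromosome.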

How the data were processed

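Outflow tract SMCs with FLAG-tagged PRDM6 gave 2 PRDM6 ChIP and 2 Input libraries. The authors filtered and trimmed paired reads, aligned them to mm10 with BWA at a mapping quality of at least 13, and called peaks in each ChIP library against its own input with MACS2 (p below 0.001, versions not given in the sources used here). The deposited list holds peaks matched between the replicates, the authors' annotation of each, a scaled IDR score (540 or more is a global IDR of at most 0.05, 830 or more at most 0.01) and −log10 p and −log10 IDR values. The deposited positions (unit: bp) are in mm10 and were written from 1. The list holds no Input values and no read totals, so depth per library is known only through peak heights. The column of the annotation headed as a q-value held the −log10 p of the second-listed replicate and was used as such.

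Members were compared with 2 other classes by two-sided Fisher's exact tests (Benjamini-Hochberg over the tests of one setting, 8 in the main comparison), with Wilson intervals for shares and Newcombe intervals for differences. They cover counting error only. Motifs were searched on both strands within 100 bp of the matched summit in GRCm38.p6. Each motif was counted on its own, and no AP-1 match overlapped a TEAD match at a member. Repeats are the lower-case bases of that genome. Gene context came from GENCODE M21, gene identities from RefSeq. Heights were read from −log10 p-values within 0.0002 of the tails of a Poisson distribution. Motif search, height search and Fisher's test were tested on simulated data. SciPy 1.17.1, pysam 0.24.0, pandas 2.3.3, NumPy 2.4.6 and matplotlib 3.10.9 were run under Python 3.11.15.

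Named peaks were the 10 strongest, those with a global IDR of at most 0.01, those of genes with 4 or more members, up to 4 genes per list, and 2 on each side of each limit. Some peaks that this rule names are not reported here. Other peaks named (those with a TEAD motif within the IDR limit of 0.05, those with both motifs and single peaks) were chosen after their values were seen. Members, lists, tests and alternatives were chosen with earlier results of these data known. Alternatives were a global IDR limit of 0.05 or 0.01, each replicate alone, a distance limit of 10 kb, GENCODE-intergenic members, 1 peak per run of neighbours within 5 kb, a motif window of 50 bp and flanks 3000 bp away.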

Additional observations from a re-analysis of the deposited data

How the results depend on the processing

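Of 73 values under alternative settings, 52 kept their direction and their side of the threshold (tests), stayed within the interval of the main value (shares and ratios) or were within 1.5 times the main count (numbers of peaks and genes). With only peaks at a global IDR of at most 0.05, there were 54 members, 53 genes and an upstream share of 77.8%. Strength could not be compared there, since every such peak is above the list median. The AP-1 difference was −2.48 points from the peaks at 20 to 100 kb and 3.38 points from promoter peaks, neither of which passed, and the TEAD difference from the peaks at 20 to 100 kb was 18.7 points and passed. No TEAD motif lay in the flanks of these 54, so that ratio could not be computed. With a distance limit of 10 kb, there were 536 members, 472 genes and an upstream share of 77.2%, and the AP-1 difference from the peaks at 20 to 100 kb was −0.0129 points. With the strongest of neighbouring peaks, a setting that selects on strength itself, the strength difference from promoter peaks was 3.68 points and did not pass. With a global IDR limit of 0.01, the reproducible share differed by −0.0796 points from the peaks at 20 to 100 kb and by 0.405 points from promoter peaks, and neither passed. The TEAD ratio was 2.88 in a window of 50 bp and 2.78 with flanks 3000 bp away, and the AP-1 ratio was 5.97 with those flanks. The cause of these changes was not tested.

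With the first-listed or the second-listed replicate alone, the strength difference ran from −3.50 to 2.81 points against the peaks at 20 to 100 kb and from 6.22 to 9.30 against promoter peaks. The AP-1 difference ran from 1.37 to 2.02 points and from 8.15 to 8.64, and the TEAD difference from −0.179 to 2.11 points and from 1.84 to 3.13. With the second-listed replicate alone, both TEAD differences passed (Fisher's exact test, adjusted p = 0.0379 and 0.000681), and with the first-listed alone neither did (adjusted p = 0.891 and 0.0701). The AP-1 ratio ran from 4.09 to 4.77 and the TEAD ratio from 1.71 to 2.18. The number of members, their genes and their side of the TSS do not depend on a replicate, since the list holds matched peaks. No paired analysis was possible because the list names the replicates by order only and holds no value of the Input group. The members whose height could be read rested on a median of 15 and 14 fragments in the replicates, and shares within small groups have wide intervals.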
